A study of Homo sapiens with 12 samples.

Results

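Epithelial-mesenchymal transition (EMT) transcription factors and cadherins were followed in MUM2B and OCM1, 2 cell lines of human uveal melanoma, a tumour of the pigment cells of the eye. The 9 genes were SNAI2, ZEB1, ZEB2 and TWIST1, which encode transcription factors, and CDH1, CDH2, CDH3, CDH11 and CDH13, which encode cadherins. They were chosen by name, with earlier results of these data known. Each gene was read from the probe set that names it alone and has the highest mean over all arrays. Of the 9 genes, 8 had such a probe set, out of 18132 genes that did. CDH13 had none, so it is only named here. Of these 8, 6 reached a scaled signal of 100 on at least 3 arrays and were tested, out of 12715 genes tested.

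Affymetrix PrimeView arrays, 12 in all, measured RNA in 4 groups of 3. The groups were wild type MUM2B, MUM2B overexpressing CANT1, wild type OCM1 and OCM1 overexpressing CANT1. CANT1 (CASC15-New-Transcript 1, also CASC15-NT1) is a long noncoding RNA, and cells overexpressing it are called CANT1 cells below. Replicate 1 of every group carries a growth label that names selection with puromycin, and replicates 2 and 3 carry a label that names DMEM with 10% serum. The labels describe no empty vector, and they do not say whether an overexpressing line is a clone. Nothing in the labels makes the replicates separate cultures, so a p-value here covers array to array spread only, and that spread may be technical.

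EMT is the process in which epithelial cells loosen their junctions and take on a migratory, mesenchymal form. SNAI2, ZEB1, ZEB2 and TWIST1 are DNA-binding factors that repress epithelial genes such as CDH1, and a change from E-cadherin (CDH1) to N-cadherin (CDH2) is the best known mark of the process. Melanocytes come from the neural crest and are not epithelial. In melanoma, SNAI2 and ZEB2 are linked with the differentiated pigment cell state and ZEB1 and TWIST1 with the undifferentiated one.

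Levels are given as scaled signal, that is, each array's linear signal brought to a 2% trimmed mean of 500. Differences were taken on log2 values after adding 32 to the scaled signal. This makes the fold of a dim gene come out too small. A ± gives the standard error of the limma fit. That fit held 1 term for each group and 1 for the labelled set, replicate 1 or replicates 2 and 3. A gene was called at a Benjamini-Hochberg adjusted p under 0.05 over all genes tested. Signals of different probe sets are not on a common scale, so levels were compared between groups and not between genes. In RNA from whole cultures, fewer cells that express a gene and less of its RNA in each cell cannot be told apart.

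The replicate 1 arrays differed from the others in more than their label. Actin RNA (ACTB) was 2.15 to 2.51 log2 units brighter at its 3′ probe set than at its 5′ probe set on replicate 1, against 0.473 to 0.911 on replicates 2 and 3. Wild type OCM1 replicate 1 stood furthest apart, correlating on average at 0.828 with its own line, where the remaining 11 arrays reached 0.936 to 0.978. The melanocyte lineage genes showed the lines to be unlike. Their summed signal over 17 measured genes was 2045.8 to 2696.4 on the wild type MUM2B arrays and 2212.8 to 2366.1 on the MUM2B CANT1 arrays. It was 88660.9 to 109691.7 on the OCM1 CANT1 arrays, 91424.9 and 94207.5 on wild type OCM1 replicates 3 and 2, and 17011.6 on wild type OCM1 replicate 1. The defining markers PMEL (117.2 to 166.0) and MLANA (36.3 to 55.5) were low on all 6 MUM2B arrays, so the labelled origin of MUM2B was not visible in them.

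The 250 bases upstream of the annotated transcription start of ZEB1, ZEB2 and CDH2 are shown because these genes gave the differences described below and their windows were in the RefSeq table used here (GRCh38.p14). The table held windows for 3 of the 9 members. For ZEB1, which has 7 windows, and CDH2, which has 2, the most upstream window is printed. Capitals mark the E-box CAGGTG or its reverse complement CACCTG, the sequence that SNAI and ZEB factors bind.
ZEB1, chr10:31318167-31318416, plus strand: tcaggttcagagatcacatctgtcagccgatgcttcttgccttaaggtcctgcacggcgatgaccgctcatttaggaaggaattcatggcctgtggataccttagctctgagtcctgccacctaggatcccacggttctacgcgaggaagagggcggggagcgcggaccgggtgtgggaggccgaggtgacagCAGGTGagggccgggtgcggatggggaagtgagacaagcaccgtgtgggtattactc
ZEB2, chr2:144520120-144520369, minus strand: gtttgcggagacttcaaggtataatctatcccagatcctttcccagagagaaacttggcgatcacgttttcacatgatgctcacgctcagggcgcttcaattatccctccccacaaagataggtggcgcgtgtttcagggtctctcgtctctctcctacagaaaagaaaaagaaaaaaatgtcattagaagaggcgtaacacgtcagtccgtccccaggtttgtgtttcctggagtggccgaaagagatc
CDH2, chr18:28177131-28177380, minus strand: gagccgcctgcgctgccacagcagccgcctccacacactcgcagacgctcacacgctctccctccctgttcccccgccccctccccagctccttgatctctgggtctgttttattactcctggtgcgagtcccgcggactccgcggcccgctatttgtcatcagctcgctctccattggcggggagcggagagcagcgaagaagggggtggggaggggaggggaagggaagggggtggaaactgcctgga
The ZEB1 window held 1 match, which begins 57 bases before the start site, and the ZEB2 and CDH2 windows held none. Of 35116 such windows in the table, 17.5% held a match on either strand. A match is a description of the letters and not a binding site.

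SNAI2, which encodes the zinc finger repressor Slug, was higher in OCM1. Its scaled signal on replicates 1, 2 and 3 was 959.4, 1649.4 and 1414.0 in wild type MUM2B and 1284.1, 1399.8 and 1147.0 in MUM2B CANT1 cells. It was 2500.8, 3128.9 and 3692.4 in wild type OCM1 and 2275.2, 2886.7 and 3305.8 in OCM1 CANT1 cells. All 6 OCM1 arrays lay above all 6 MUM2B arrays, and the wild type and CANT1 arrays of each line overlapped. OCM1 exceeded MUM2B by 1.21 ± 0.16 in wild type cells (limma adjusted p = 0.000429), a 2.31-fold difference, and by 1.11 ± 0.16 in CANT1 cells (adjusted p = 0.000606).

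ZEB1, a zinc finger and homeodomain repressor, was lower in OCM1. Its scaled signal on replicates 1, 2 and 3 was 4074.3, 1904.1 and 1960.6 in wild type MUM2B and 3818.2, 2592.2 and 2519.0 in MUM2B CANT1 cells. It was 1257.0, 436.3 and 455.6 in wild type OCM1 and 612.8, 884.9 and 792.6 in OCM1 CANT1 cells. The highest OCM1 array lay below the lowest MUM2B array. Replicate 1 was the brightest array in every group except OCM1 CANT1, where it was the dimmest. OCM1 minus MUM2B was −1.92 ± 0.32 in wild type cells (limma adjusted p = 0.00149), a 3.78-fold difference, and −1.91 ± 0.32 in CANT1 cells (adjusted p = 0.00128).

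ZEB2, the paralog of ZEB1, had the opposite order between the lines. Its scaled signal on replicates 1, 2 and 3 was 554.7, 187.3 and 192.6 in wild type MUM2B and 441.4, 172.0 and 193.0 in MUM2B CANT1 cells. It was 557.1, 917.9 and 799.0 in wild type OCM1 and 1236.9, 564.0 and 663.8 in OCM1 CANT1 cells. Replicate 1 of wild type OCM1 (557.1) was nearly level with replicate 1 of wild type MUM2B (554.7), and the other OCM1 arrays were above every MUM2B array. OCM1 exceeded MUM2B by 1.34 ± 0.35 in wild type cells (limma adjusted p = 0.0173) and by 1.53 ± 0.35 in CANT1 cells (adjusted p = 0.00757). The wild type call was lost without MUM2B wild type replicate 2 or 3 (1.21 and 1.23, adjusted p = 0.0654 and 0.0683) and without OCM1 wild type replicate 2 or 3 (1.05 and 1.15, adjusted p = 0.0668 and 0.0687). Without OCM1 wild type replicate 1 it was 1.93 ± 0.14.

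TWIST1, a basic helix-loop-helix factor of the neural crest and mesoderm, was lower in OCM1. Its scaled signal on replicates 1, 2 and 3 was 2307.9, 1365.0 and 1304.6 in wild type MUM2B and 1865.9, 1526.7 and 1680.9 in MUM2B CANT1 cells. It was 959.4, 360.0 and 347.4 in wild type OCM1 and 425.4, 390.3 and 430.4 in OCM1 CANT1 cells. The lines did not overlap, and wild type OCM1 replicate 1 was the brightest of the 6 OCM1 arrays by a wide margin. OCM1 minus MUM2B was −1.63 ± 0.24 in wild type cells (limma adjusted p = 0.000780), a 3.09-fold difference, and −1.94 ± 0.24 in CANT1 cells (adjusted p = 0.000239), a 3.84-fold difference.

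**Figure D1:**
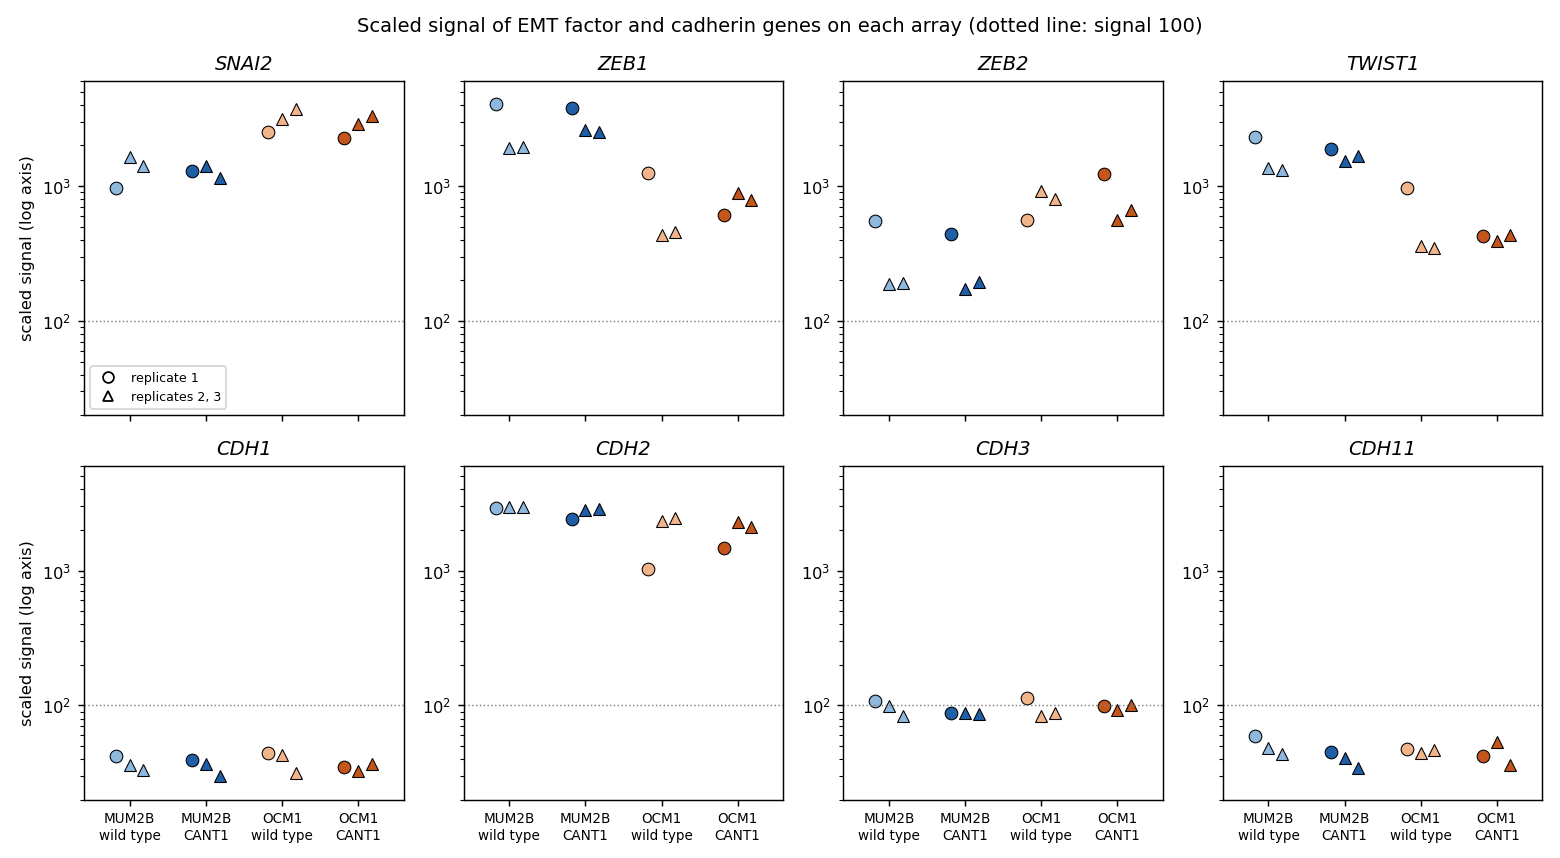
Scaled signal (log axis) of the 8 measured genes on each of the 12 arrays, by group. Circles are replicate 1, triangles replicates 2 and 3, and the dotted line is a signal of 100. SNAI2 and ZEB2 are higher in OCM1, ZEB1 and TWIST1 are higher in MUM2B, and CDH1 and CDH11 stay below 100 on every array.

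Among the cadherins, CDH2, the N-cadherin of neural and mesenchymal cells, was bright in all 4 groups. Its scaled signal on replicates 1, 2 and 3 was 2908.8, 2939.8 and 2977.3 in wild type MUM2B and 2403.6, 2824.9 and 2869.1 in MUM2B CANT1 cells. It was 1034.4, 2310.5 and 2437.8 in wild type OCM1 and 1475.2, 2304.4 and 2099.0 in OCM1 CANT1 cells. Replicate 1 was the dimmest array in both OCM1 groups, and wild type OCM1 replicate 3 overlapped MUM2B CANT1 replicate 1. OCM1 minus MUM2B was −0.70 ± 0.21 in wild type cells (limma adjusted p = 0.0284), and −0.48 ± 0.21 in CANT1 cells did not pass (adjusted p = 0.103). The wild type call was lost without MUM2B wild type replicate 1 (−0.49, adjusted p = 0.0879) or 3 (−0.78, adjusted p = 0.0504). Without OCM1 wild type replicate 1 the wild type difference was −0.40 ± 0.14 (adjusted p = 0.0410), and the difference in CANT1 cells then passed at −0.48 ± 0.12 (adjusted p = 0.00848).

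CDH1, the E-cadherin of epithelia and of the contact between melanocytes and keratinocytes, was dim everywhere. Its scaled signal was 30.0 to 41.9 over the MUM2B arrays (median 36.4) and 31.8 to 44.2 over the OCM1 arrays (median 35.7), so it was not tested. A second CDH1 probe set gave 12.9 to 24.2 on 11 arrays and 190.8 on wild type OCM1 replicate 1. The first probe set read 44.2 on that array, so the probe sets disagree there. CDH11, the osteoblast cadherin of mesenchymal cells, lay at 34.5 to 59.3 and was not tested either. CDH3, the P-cadherin of basal epithelium and hair follicle, lay at 83.9 to 112.6, reached 100 on 3 arrays and was tested on that narrow margin. OCM1 minus MUM2B for CDH3 was −0.03 ± 0.11 in wild type cells (limma adjusted p = 0.872) and 0.11 ± 0.11 in CANT1 cells (adjusted p = 0.461).

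Between the lines, 5 of the 6 tested genes were called in wild type cells, where 33.0% of all genes tested were called, and 4 of 6 in CANT1 cells, where 37.2% were called. On replicates 2 and 3 alone, 5 genes could be tested, since CDH3 no longer passed the signal minimum. All 5 were called in wild type cells (64.7% of all genes tested) and in CANT1 cells (66.3%), so these shares are high in the whole table too. In wild type cells the differences on replicates 2 and 3 were 1.14 ± 0.13 for SNAI2, −2.04 ± 0.09 for ZEB1, 2.00 ± 0.11 for ZEB2, −1.83 ± 0.10 for TWIST1 and −0.31 ± 0.09 for CDH2. Replicate 1 alone, with 1 array a group and no test, gave 1.35, −1.67, 0.01, −1.24 and −1.46 in the same order. The sizes for ZEB2 and CDH2 were far apart between the sets, and ZEB2 on replicate 1 was level between the lines. The 12-array calls for ZEB2 and CDH2 in wild type cells were lost with no set term (limma adjusted p = 0.0545 and 0.115) and with only the arrays compared (adjusted p = 0.0823 and 0.115). Median OCM1 minus MUM2B over all genes tested was 0.056 in wild type cells and 0.086 in CANT1 cells.

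**Figure D2:**
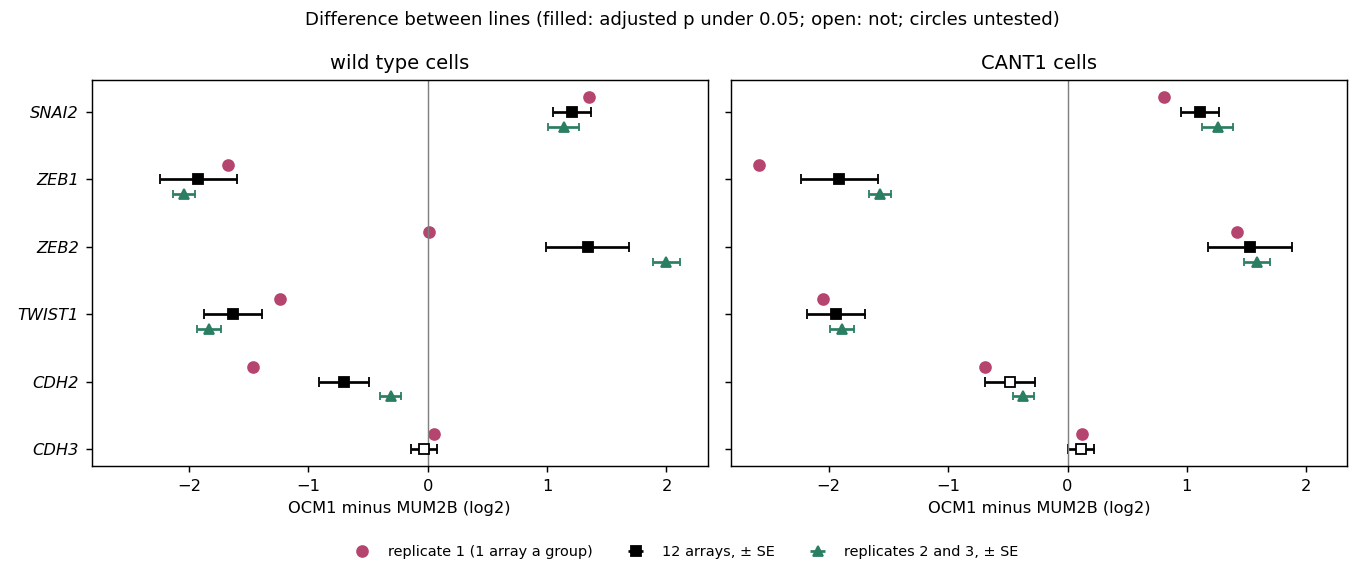
OCM1 minus MUM2B (log2) for the 6 tested genes in wild type cells (left) and CANT1 cells (right). Squares are the fit on 12 arrays ± SE, triangles the fit on replicates 2 and 3 ± SE (CDH3 was not tested there), circles replicate 1 with 1 array a group. Filled squares and triangles have an adjusted p under 0.05. ZEB2 in wild type cells is at 0.01 on replicate 1 and 2.00 on replicates 2 and 3.

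CANT1 overexpression was compared with wild type in each line. With all 12 arrays, limma called 0 of the 6 tested genes in MUM2B and 0 in OCM1, and none had an unadjusted p under 0.05. Over all genes tested, 0% were called in MUM2B (220 genes had an unadjusted p under 0.05) and 0.118% in OCM1 (1177 genes). In MUM2B the differences were −0.04 ± 0.16 for SNAI2, 0.23 ± 0.32 for ZEB1, −0.14 ± 0.35 for ZEB2, 0.07 ± 0.24 for TWIST1, −0.13 ± 0.21 for CDH2 and −0.10 ± 0.11 for CDH3 (adjusted p = 1.00 for each). In OCM1 they were −0.14 ± 0.16, 0.24 ± 0.32, 0.06 ± 0.35, −0.24 ± 0.24, 0.09 ± 0.21 and 0.04 ± 0.11 in the same order, with adjusted p of 0.796 to 0.976. The difference of the CANT1 effect between the lines was called for 0 of 6, where 0.0472% of all genes tested were called. Standard errors of 0.32 and 0.35 for ZEB1 and ZEB2 were wide, and so few genes were called that larger differences could also go uncalled. With the same standard error, the ZEB2 difference of 1.34 between the wild type lines had an unadjusted limma p of 0.00393. The lack of a call therefore does not show that these genes were unchanged.

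Replicates 2 and 3 alone gave calls for ZEB1 and ZEB2. ZEB1 rose with CANT1 by 0.40 ± 0.09 in MUM2B (limma adjusted p = 0.0109) and by 0.86 ± 0.09 in OCM1 (adjusted p = 0.000110), 1.82-fold. ZEB2 fell by 0.46 ± 0.11 in OCM1 (difference −0.46, adjusted p = 0.0115) and was at −0.05 ± 0.11 in MUM2B (adjusted p = 0.787). Thus 1 of 5 genes was called in MUM2B, where 25.0% of all genes tested were called, and 2 of 5 in OCM1, where 23.3% were. The larger rise of ZEB1 in OCM1 was itself called, with a difference between lines of 0.47 ± 0.13 (adjusted p = 0.0280, 21.9% of all genes called). TWIST1 (0.26 ± 0.10 and 0.20 ± 0.10, adjusted p = 0.0727 and 0.165), SNAI2 (−0.26 ± 0.13 and −0.14 ± 0.13, adjusted p = 0.171 and 0.496) and CDH2 (−0.05 ± 0.09 and −0.11 ± 0.09, adjusted p = 0.718 and 0.436) did not pass in MUM2B or OCM1.

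Replicate 1 went the other way for the called genes in OCM1. CANT1 minus wild type on replicate 1 was −1.00 for ZEB1 and 1.11 for ZEB2 there. For ZEB1 in MUM2B it was −0.09, and over the 7 ZEB1 probe sets it ran from −0.20 to 0.15, so its sign depended on the probe set. A fit with a separate term for each group and set was added after the data were seen. Replicate 1 had 1 array a group there, so the fit took its spread from replicates 2 and 3 alone (4 residual degrees of freedom). Its adjusted p-values do not cover the spread of replicate 1 arrays. The fit tested the difference between the sets, replicate 1 minus replicates 2 and 3. In OCM1 it was called for ZEB1 (−1.86 ± 0.16, limma adjusted p = 2.91e-06), ZEB2 (1.57 ± 0.19, adjusted p = 3.98e-05), TWIST1 (−1.31 ± 0.17, adjusted p = 5.54e-05) and CDH2 (0.61 ± 0.16, adjusted p = 0.00808). These are 4 of 6 genes, where 48.2% of all genes tested were called. In MUM2B it was called for SNAI2 (0.67 ± 0.23, adjusted p = 0.0388), ZEB1 (−0.49 ± 0.16, adjusted p = 0.0356) and TWIST1 (−0.56 ± 0.17, adjusted p = 0.0224), 3 of 6 genes against 35.8% of all genes.

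In OCM1, replicate 1 was far from replicates 2 and 3 in wild type cells, on the array with the low melanocyte lineage signal. On that array ZEB1 (1257.0) and TWIST1 (959.4) were the highest of the 6 OCM1 arrays, and ZEB2 (557.1) and CDH2 (1034.4) the lowest. ZEB2 on OCM1 CANT1 replicate 1 (1236.9) was the highest of the 6. Without the wild type array, the CANT1 difference in OCM1 was 0.59 ± 0.29 for ZEB1, −0.53 ± 0.14 for ZEB2, 0.10 ± 0.17 for TWIST1 and −0.20 ± 0.14 for CDH2, and none was called (limma adjusted p = 0.478, 0.121, 0.919 and 0.648). Without OCM1 CANT1 replicate 1 it was 0.73 ± 0.19 for ZEB1, −0.05 ± 0.42 for ZEB2, 0.00 ± 0.24 for TWIST1 and 0.12 ± 0.25 for CDH2, and none was called (adjusted p = 0.214, 0.984, 0.997 and 0.923). The growth label and the actin difference move with replicate 1 in all 4 groups and cannot be told apart, and their part in the result was not tested.

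**Figure D3:**
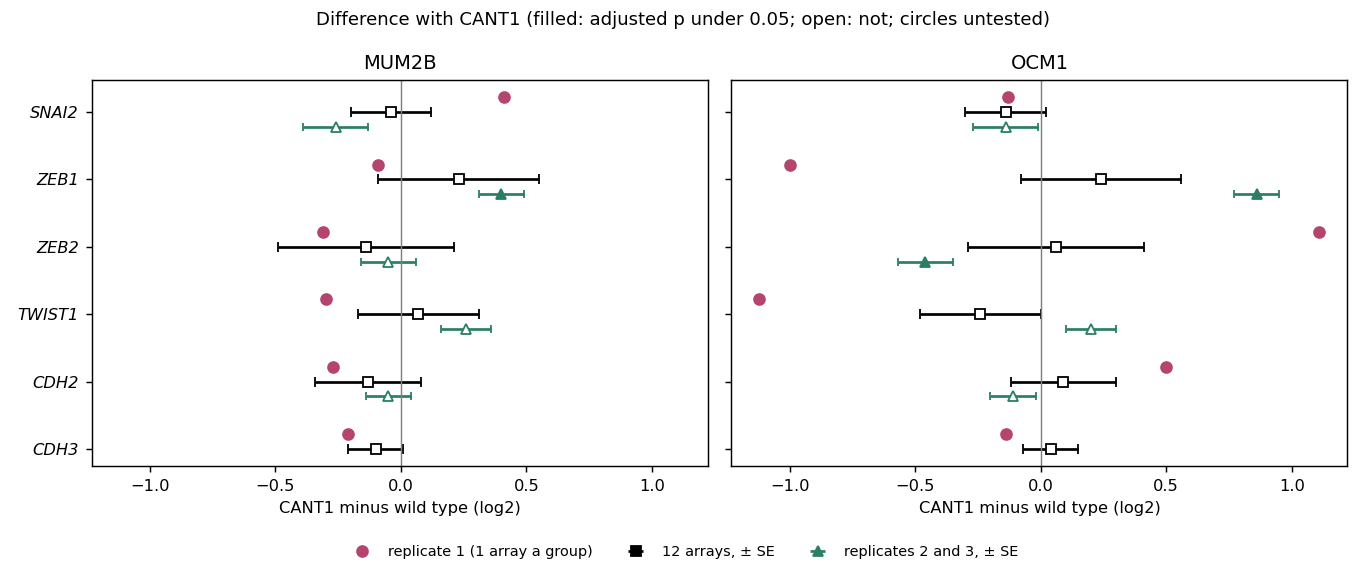
CANT1 minus wild type (log2) for the 6 tested genes in MUM2B (left) and OCM1 (right). Squares are the fit on 12 arrays ± SE, triangles the fit on replicates 2 and 3 ± SE (CDH3 was not tested there), circles replicate 1 with 1 array a group. Filled squares and triangles have an adjusted p under 0.05. In OCM1, ZEB1 is at −1.00 on replicate 1 and 0.86 on replicates 2 and 3, and ZEB2 at 1.11 and −0.46.

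The sets also differed in the contrast of the lines. In wild type cells the set difference was called for ZEB2 (−1.99 ± 0.19), TWIST1 (0.59 ± 0.17) and CDH2 (−1.15 ± 0.16), 3 of 6 genes where 52.7% of all genes were called by limma. In CANT1 cells it was called for ZEB1 alone (−1.00 ± 0.16), 1 of 6 genes where 8.94% of all genes were called. ZEB1 was lower in OCM1 in both sets of the CANT1 cells, with a difference of −2.58 on replicate 1 and −1.57 ± 0.09 on replicates 2 and 3.

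Other probe sets of the same genes were read as a check. ZEB1 has 7 probe sets, all with suffixes (_s_at, _x_at) of probe sets that can bind more than 1 transcript. Their OCM1 minus MUM2B differences ran from −1.92 to −1.39 in wild type cells and from −1.91 to −1.57 in CANT1 cells. On replicates 2 and 3 their CANT1 differences ran from 0.40 to 0.57 in MUM2B and from 0.36 to 0.94 in OCM1, all above zero. The difference of the CANT1 effect between the lines on replicates 2 and 3 ran from −0.20 to 0.47, so its sign depended on the probe set. The second ZEB2 probe set gave 1.27 for the lines in wild type cells (−0.12 on replicate 1 and 1.96 on replicates 2 and 3) and 0.84 in CANT1 cells, and in that form the CANT1 cell call was lost (limma adjusted p = 0.0863). On replicates 2 and 3 it gave a CANT1 difference of −0.68 in OCM1 and of 0.41 in MUM2B, where the brighter probe set gave −0.05. The second CDH2 probe set gave −0.90 and −0.42 for the lines. SNAI2 and TWIST1 have 1 probe set each, so no such check was possible.

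The 4 transcription factors have group means that span over 1 log2 unit, and the genes most like each were found by Pearson correlation over the 12 arrays, each set centred. SNAI2 was most like MRPS21 (r = 0.982), HILPDA (0.982) and ATP5MF (0.980). ZEB1 was most like PTPN21 (r = 0.989), ERRFI1 (0.988) and MAP1B (0.987). ZEB2 was most like USP48 (r = 0.995), ZNF106 (0.994) and PEG10 (0.988). TWIST1 was most like TFPI, G0S2 and LAYN (r = 0.996 each). All 12 points share the split into 2 lines, and these values describe likeness in it.

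Some genes of the lists described next passed the signal minimum through 1 line alone, with every array of the other line under 100. Their fitted difference and its adjusted p depend on the added 32, and the signal minimum largely set their direction. Each is therefore given as a bound, the bright group's geometric mean against a signal of 100, with the call of the fit. The bound is of means, so single arrays of a bright group can lie under 100. In the line contrast, counts below are read against 33.0% of all genes called in wild type cells and 37.2% in CANT1 cells.

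Other EMT factors included genes higher and genes lower in OCM1. In wild type cells, 2 of 13 tested factors were higher in OCM1 and 4 lower, with a median difference of −0.06. SOX9, a neural crest and chondrocyte factor, had a scaled signal of 20.5 to 199.0 on the wild type OCM1 arrays and 1275.8 to 2027.4 on the wild type MUM2B arrays (difference −4.20 ± 0.45, limma adjusted p = 0.000116). TWIST2, the paralog of TWIST1, went the same way (−3.62 ± 0.44, adjusted p = 0.000245), as did ID1, an inhibitor of basic helix-loop-helix factors (−2.60 ± 0.36, adjusted p = 0.000482). ID2, of the same inhibitor family, was at least 8.44-fold higher in OCM1 by the mean (limma adjusted p = 0.00364). It ran from 335.5 to 4681.6 on the wild type OCM1 arrays. The ID2 difference was 5.92 on replicate 1 and 2.51 on replicates 2 and 3, so the size of the bound leans on replicate 1. In CANT1 cells 3 were higher and 3 lower, and PRRX1, a mesenchymal homeobox factor, was among the higher, at least 4.10-fold (adjusted p = 0.00383). Genes that keep the epithelial state, 6 tested of 12 measured, gave 0 higher and 2 lower in wild type cells, KLF4 (−3.40 ± 0.36) and KLF5 (−1.43 ± 0.27). In CANT1 cells these 2 were again lower, and ESRP1, an epithelial splicing regulator, was at least 1.94-fold higher in OCM1 (adjusted p = 0.00555).

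Among 17 other cadherins measured, 8 were tested and 3 differed between the lines in both wild type and CANT1 cells. CDH5, the VE-cadherin of endothelium, had a scaled signal of 2384.9 to 3237.8 on the wild type MUM2B arrays and 46.6 to 74.0 on the wild type OCM1 arrays, at least 28.4-fold lower (limma adjusted p = 3.92e-07). CDH19, a cadherin of neural crest derived Schwann and pigment cells, was at 16.8 to 24.0 in wild type MUM2B and 80.8 to 1076.1 in wild type OCM1, at least 4.49-fold higher (adjusted p = 0.00307). CDH7 was also higher in OCM1, at least 1.57-fold by the mean (limma adjusted p = 0.00439). It was at 30.7 to 36.1 in wild type MUM2B and 71.1 to 237.8 in wild type OCM1. On replicate 1 the differences were 1.21 for CDH19 and 0.61 for CDH7, against 4.32 and 2.02 on replicates 2 and 3. Besides CDH5, TIE1 was the other of 5 tested endothelial genes called lower in OCM1 wild type cells (−0.81 ± 0.24), and KDR, the VEGF receptor, was at 91.9 to 198.5 over all 12 arrays. PECAM1 reached 579.1 on wild type MUM2B replicate 1 and was at 65.9 to 132.7 in OCM1. Of 6 measured immune genes, CD68 (89.2 to 523.3) was the 1 that passed the signal minimum, and PTPRC, the leukocyte marker, stayed under 20 on every array. EPCAM, the epithelial surface marker, was at 25.3 to 61.4.

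Cadherin partners differed between the lines in both directions. Of 15 tested catenins and adherens junction genes, 3 were higher and 4 lower in wild type OCM1, with a median of 0.00. Over all genes tested, 33.0% were called in that contrast. AJUBA, a LIM protein of junctions, was lower (−2.96 ± 0.43, limma adjusted p = 0.000667), and its relative LIMD1 was higher (1.05 ± 0.32, adjusted p = 0.0295). CTNNB1, the β-catenin gene, was higher in OCM1 in CANT1 cells (1.01 ± 0.18, adjusted p = 0.00211). Of 12 genes of cadherin cleavage and turnover, 4 were higher and 1 lower in wild type OCM1. PSEN2, a γ-secretase subunit, was higher (1.24 ± 0.22, adjusted p = 0.00243), as was CBLL1, a ubiquitin ligase of E-cadherin also known as Hakai (1.12 ± 0.12, adjusted p = 0.000140).

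Several epithelial genes were brighter in MUM2B, while CDH1 was dim in both lines. All 4 called keratins of 6 tested were lower in wild type OCM1, among them KRT7, at 5636.2 to 12356.9 in MUM2B and 40.4 to 77.7 in OCM1, at least 94.9-fold lower (limma adjusted p = 3.37e-07), and KRT18 (−3.23 ± 0.16, adjusted p = 6.06e-07). The summed keratin signal was 20775.3 to 35844.8 on the MUM2B arrays and 1756.8 to 2190.6 on the OCM1 arrays. CLDN1, a tight junction claudin, was at 3669.5 to 12480.5 in wild type MUM2B and 21.0 to 45.4 in wild type OCM1, at least 56.7-fold lower (adjusted p = 1.89e-07). Against 33.0% of all genes called in wild type cells, 2 of 9 tested tight junction genes were called, CLDN1 and TJP1, both lower. The 9 tight junction genes had a median difference of −0.02. In CANT1 cells 3 were lower and 1 higher, CGN, the cingulin of tight junctions, at least 1.01-fold (adjusted p = 0.00668). Of 7 tested desmosome genes 1 was called in wild type cells, PKP3 (at least 1.17-fold lower), and 4 in CANT1 cells, all lower in OCM1. On replicates 2 and 3 alone, 1 was higher and 5 lower in wild type cells, and likewise in CANT1 cells. Over all genes 64.7% and 66.3% were called there. The summed desmosome signal was 12421.5 on wild type OCM1 replicate 1, against 4500.7 and 4307.3 on replicates 2 and 3. It was 6199.1 to 10823.2 on the wild type MUM2B arrays.

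Of 20 tested mesenchymal genes, 1 was higher and 5 lower in wild type OCM1, with a median of −0.26, where 33.0% of all genes tested were called. On replicates 2 and 3 alone, 7 were higher and 8 lower, with a median of 0.03. TGFBI, a matrix protein, was at 1486.9 to 4160.8 in wild type MUM2B and 46.1 to 81.2 in wild type OCM1, at least 27.0-fold lower (limma adjusted p = 2.66e-06), and fibronectin, FN1, was also lower (−2.36 ± 0.40, adjusted p = 0.00186). VIM, the mesenchymal filament vimentin, was at 20149.5 to 36406.5 over the 12 arrays. Of 3 tested fibroblast markers LUM was higher (at least 4.80-fold by the mean) and FAP lower (−1.18 ± 0.32) in wild type OCM1. LUM ran from 62.2 to 1383.5 on the wild type OCM1 arrays. Its difference was 0.61 on replicate 1 and 4.59 on replicates 2 and 3. COL1A2 (40.9 to 58.6) and DCN (31.7 to 47.8) were dim on all arrays.

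The genes of pigment and invasive melanoma states also separated the lines. Of 15 tested melanocyte lineage genes, 13 were higher in OCM1 in wild type cells and all 15 in CANT1 cells, with medians of 3.39 and 4.75. PMEL, a melanosome matrix protein, was at 8092.9 on wild type OCM1 replicate 1 and up to 23465.7 on the other wild type OCM1 arrays (6.63 ± 0.28, limma adjusted p = 2.81e-07). Of 11 invasive state genes, 7 were lower in OCM1 in wild type cells and 9 in CANT1 cells, with medians of −4.12 and −4.22. The medians of both lists include genes under 100 in the dim line, so their sizes depend on the added 32. The direction of such genes, MLANA and AXL among them, was largely set by the signal minimum, and the counts include them. Over all genes tested, 33.0% were called in wild type cells and 37.2% in CANT1 cells. AXL, a receptor tyrosine kinase of undifferentiated melanoma, was at 8572.4 to 12692.8 in wild type MUM2B and 20.6 to 77.9 in wild type OCM1, at least 108.9-fold lower (adjusted p = 2.52e-08). These lists move with SNAI2 and ZEB2 on the side of OCM1 and with ZEB1 and TWIST1 on the side of MUM2B, and their part in the members' differences was not tested.

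**Figure D4:**
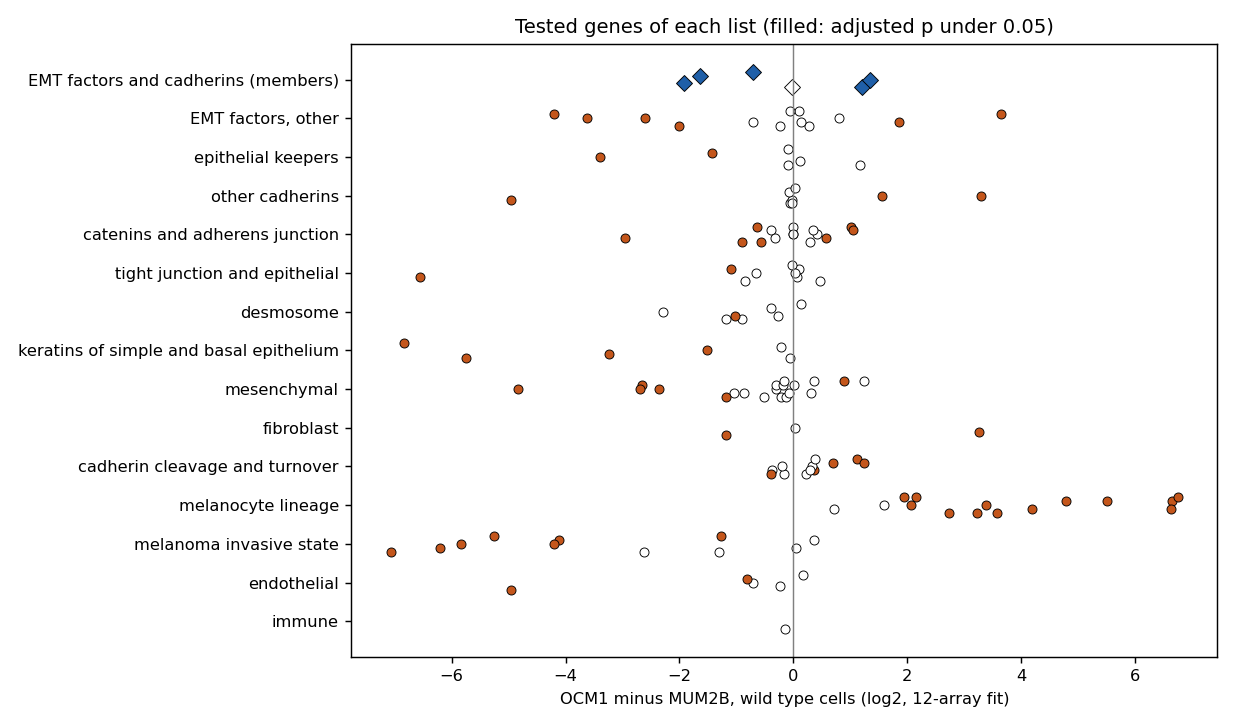
OCM1 minus MUM2B in wild type cells (log2, fit on 12 arrays) for the tested genes of each list, 1 point a gene, with the 6 tested members as diamonds. Filled points have an adjusted p under 0.05. The melanocyte lineage genes lie to the right with a median of 3.39 and the invasive state genes to the left with a median of −4.12.

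With CANT1, limma on 12 arrays called no gene of any of these lists in either line. On replicates 2 and 3 alone, 25.0% of all genes were called in MUM2B and 23.3% in OCM1 in either direction, and the counts below are read against those shares. Of 20 mesenchymal genes, 8 rose and 0 fell in MUM2B, with a median of 0.29 against −0.19 on replicate 1, and in OCM1 4 rose and 2 fell (0.04 against 0.12). Of 12 other EMT factors, 4 rose and 1 fell in MUM2B (0.12 against −0.07), and 0 rose and 2 fell in OCM1 (−0.10 against 0.84). Of 15 catenins and adherens junction genes, 1 rose in MUM2B (0.03 against −0.11) and 4 rose in OCM1 (0.20 against −0.21), and none fell. Of 6 keratins, 1 rose and 1 fell in MUM2B, and none was called in OCM1. Of 15 melanocyte lineage genes, 1 rose in MUM2B, and 3 rose and 4 fell in OCM1. Of 11 invasive state genes, 2 rose in MUM2B, and 3 rose and 2 fell in OCM1. On replicate 1 the melanocyte lineage list had a median CANT1 difference of 3.35 in OCM1, against −0.10 on replicates 2 and 3.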

How the data were processed

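Values were taken as the authors deposited them, 1 per probe set and array, on a scale read here as log2; per the submitters' processing notes the signal came from MAS5, and the log base and normalization are not given in the sources used here. Each value was turned to linear signal and multiplied by a factor per array (2% trimmed mean 500); 32 was added before log2. Of 49395 probe sets, 44988 named 1 gene and each gene was represented by its brightest, named from the platform annotation and updated by gene identifier (44961 probe sets). Genes at 100 or more on at least 3 arrays were tested with limma 3.58.1 in R 4.3.3 (7 residual degrees of freedom, 4 for replicates 2 and 3), with Benjamini-Hochberg adjustment; 12105 genes were tested on replicates 2 and 3. The script was tested on simulated data. The number of arrays limits precision. The members and lists were chosen with earlier results of these data known. Named list genes were up to 4 largest called with the same direction in both sets; markers of other cell types were added after the values were seen. Alternatives covered scaling, offset, filter, set term, replicate block, probe set choice, array weights and each array left out. Deviations of same-numbered arrays correlated at r = 0.029 to 0.623. The correlation was over 0.1 in 15 of 18 comparisons and at all 3 numbers in 4 of 6 pairs of groups. Wild type and CANT1 MUM2B were not among these 4, and the labels do not say what a number shares. Deviations were taken from the mean of all 3 arrays of a group, so they include the shift between the sets. The check therefore cannot show pairing by number. Raw intensity files were not used here.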

Additional observations from a re-analysis of the deposited data

Results flagged for a closer look

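The CANT1 difference was called as differing between the labelled sets for several genes. The limma test took its spread from replicates 2 and 3 alone, since replicate 1 had 1 array a group. Its value is replicate 1 minus replicates 2 and 3. In MUM2B the value was 0.67 for SNAI2, −0.49 for ZEB1 and −0.56 for TWIST1 (adjusted p = 0.0388, 0.0356 and 0.0224). In OCM1 it was −1.86 for ZEB1, 1.57 for ZEB2, −1.31 for TWIST1 and 0.61 for CDH2 (adjusted p = 2.91e-06, 3.98e-05, 5.54e-05 and 0.00808). Across the lines, the same test gave −1.99 for ZEB2, 0.59 for TWIST1 and −1.15 for CDH2 in wild type cells (adjusted p = 5.79e-06, 0.0117 and 9.78e-05), and −1.00 for ZEB1 in CANT1 cells (adjusted p = 0.00391). On replicates 2 and 3 the rise of ZEB1 with CANT1 differed between OCM1 and MUM2B by 0.47 (limma adjusted p = 0.0280), where 21.9% of all genes were called. Over the ZEB1 probe sets this value ran from −0.20 to 0.47, so its sign depended on the probe set. Replicate 1 gave −0.91.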

How the results depend on the processing

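Over 30 values of the tested genes and up to 27 alternatives each, 698 of 765 alternative values kept their direction and side of the threshold, 12 lost the call, 9 gained it in the same direction and 46 changed sign, 0 of them where the reported value was called. Of these 46, 2 were called in the new direction, ZEB2 with CANT1 in OCM1 (adjusted p = 0.0115 on replicates 2 and 3 and 0.0210 with array weights). The calls for SNAI2, ZEB1 and TWIST1 between the lines held under every alternative in which they could be measured; ZEB1 has no probe set without an _x_at or _s_at suffix. Genes called between lines in wild type cells numbered 3 with no set term and with only the arrays compared, and 3 to 5 with 1 array left out (3 without MUM2B wild type replicate 3); in CANT1 cells they numbered 2 without _x_at or _s_at probe sets. For CANT1, replicates 2 and 3 only gave 1 call in MUM2B, 2 in OCM1 and 1 for the difference between lines; array weights, whose estimation stopped before full convergence, gave 1 in MUM2B and 2 in OCM1. The replicate block changed no call: 0, 0, 0, 5 and 4 members called in the 5 contrasts.

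These CANT1 values, uncalled on 12 arrays, changed sign. In MUM2B: CDH3 with array weights 0.00; ZEB2 by the mean of probe sets 0.04 and without _x_at or _s_at sets 0.21. In OCM1, on replicates 2 and 3 and with array weights: CDH2 −0.11 and −0.16, TWIST1 0.20 and 0.22, ZEB2 −0.46 and −0.36; ZEB2 by the mean of probe sets −0.08 and without _x_at or _s_at sets −0.22. In the difference between lines: CDH2 −0.05 and −0.11, ZEB2 −0.41 and −0.29 on replicates 2 and 3 and with array weights, SNAI2 0.13 on replicates 2 and 3; ZEB2 by the mean of probe sets −0.12 and without _x_at or _s_at sets −0.43; ZEB1 with deposited values −0.01, offset 64 −0.00 and the mean of probe sets −0.12. The cause was not tested.

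With 1 array left out, CANT1 values that changed sign ranged in MUM2B from −0.24 to 0.08 for CDH2, −0.22 to 0.11 for SNAI2, −0.03 to 0.24 for TWIST1 and −0.32 to 0.16 for ZEB2. In OCM1 they ranged from −0.20 to 0.23 for CDH2, −0.01 to 0.08 for CDH3, −0.39 to 0.10 for TWIST1 and −0.53 to 0.35 for ZEB2. For the difference between lines the ranges were −0.08 to 0.36 for CDH2, −0.24 to 0.08 for SNAI2, −0.48 to 0.03 for TWIST1, −0.23 to 0.49 for ZEB1 and −0.39 to 0.48 for ZEB2. CDH3 between wild type lines ranged from −0.09 to 0.01. Only the arrays compared gave no value for the difference between lines. CDH1 and CDH11, near background, limit what can be said of them.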
